A study of Danio rerio with 10 samples.

Results

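The heme and iron handling genes hmox1a, hmox2a, blvra, blvrb, slc40a1, fth1a, slc11a2, tfr1a and tfr1b were followed across microglia and other cells of the zebrafish brain. They were chosen by name, and all 9 were found among the 21756 genes of the deposited expression table. Heme oxygenases cleave heme into biliverdin, carbon monoxide and iron, and biliverdin reductases turn biliverdin into bilirubin. The freed iron is stored inside ferritin shells or leaves the cell through ferroportin, while transferrin receptors and the divalent metal transporter bring iron in. Macrophages take up dying cells and are known for recycling the iron and heme they contain, and microglia are the resident macrophages of the brain.

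Fish of the line Neuro:NTR-mCherry x mpeg1:GFP, 3 months of age, were used in every group. The enzyme NTR (nitroreductase) makes neurons that carry it sensitive to the drug metronidazole (MTZ), and the mpeg1 promoter is active in macrophages as well as microglia. Activated microglia were GFP-positive cells sorted after MTZ for 24 h (libraries 3 and 7) or 48 h (libraries 4 and 8), and control microglia were GFP-positive cells from fish given the solvent DMSO (libraries 1 and 5). Other brain cells were the GFP-negative cells (libraries 2, 6 and 10), for which no treatment of the fish is stated. All brains had been kept in trypsin on ice before sorting. The labels do not say whether libraries came from separate or pooled animals, so p-values measure the spread between libraries, which may be technical. In sorted populations, fewer cells of a type and less RNA per cell cannot be told apart.

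A further column labelled control microglia (library 9) was identical to the 24 h library 3 in all 21756 genes, while no other pair of libraries shared more than 1376 values. It was left out, which leaves 9 of 10 libraries and n = 2 for control microglia. The labels do not settle which sample the shared column holds, so the values given as 24 h library 3 may be those of a control sample, and every 24 h or activated value that includes them carries that doubt. Under the authors' deposited heading 24hr_VS_48_MG, log2 fold changes were -0.51 for slc40a1, 0.63 for tfr1b, -1.53 for blvrb and -2.42 for tfr1a. With library 3 as 24 h, the 24 h means here were 0.702, 1.54, 0.349 and 0.781 of the 48 h means. Which columns the authors used was not tested. Without library 3, the calls of the 9 genes in activated microglia against other brain cells held and none was gained against control microglia. Libraries held 6185540 to 12815571 reads. Values are the authors' normalised signal, in which 3 reads above a constant of 0.223 were worth 0.216 to 0.464 units. Signals of different genes are not corrected for length, so only differences between libraries of the same gene are compared. In control microglia against other brain cells, all 13 markers of microglia were higher by limma, with summed signals of 44124 and 46720 in control microglia and 430 to 1011 in other brain cells. Lower in control microglia were 10 of 13 erythrocyte markers, 10 of 10 neuron markers, 8 of 10 radial glia and astrocyte markers, 8 of 9 oligodendrocyte markers, 2 of 6 neutrophil markers and 1 of 3 choroid plexus and ependyma markers. Of 7 markers of other macrophages and dendritic cells 6 were higher and 1 was lower, and 2 of 8 endothelial and mural markers were higher. In activated microglia, 13 of 13 microglia markers were higher and 9 of 10 radial glia and astrocyte markers lower than in other brain cells. Lower there were also 11 of 13 erythrocyte, 10 of 10 neuron and 9 of 9 oligodendrocyte markers. So were 5 of 6 neutrophil and 3 of 3 choroid plexus and ependyma markers. Of 7 other macrophage and dendritic markers, 3 were higher and 1 lower. Of 8 endothelial and mural markers, 3 were higher and 3 lower. The summed signal of the radial glia and astrocyte list was 3196 and 7371 at 24 h, and 8626 and 27378 at 48 h. It was 3980 and 4937 in control microglia and 8249 to 14461 in other brain cells. The high sum in 48 h library 8 was not tested.

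Against other brain cells, control microglia had higher levels of hmox1a, slc40a1 and slc11a2, and hmox2a, blvra, blvrb, fth1a and tfr1b did not pass the test. Reads of tfr1a were 0 in control microglia, and since the gene passed the filter on low values only through the other brain cells, its call as lower is a description and not support. Each gene was fitted as log2(signal + 1) with limma across 21714 genes, and a call is a Benjamini-Hochberg adjusted p under 0.05. By that rule 15.1% of all genes were called higher in control microglia and 20.2% lower. In activated microglia against the same other brain cell libraries, hmox1a, slc40a1 and slc11a2 were called higher and hmox2a lower, where 22.9% of all genes were called higher and 27.6% lower, and tfr1a was called lower with the same limit. These comparisons share the other brain cell libraries. Between activated and control microglia none of the 9 genes was called by limma, 1 had an unadjusted p under 0.05, and limma-voom also called none. In that comparison 1.3% of all genes were called in either direction, and 4456 of 21714 had an unadjusted p under 0.05.

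**Figure D1:**
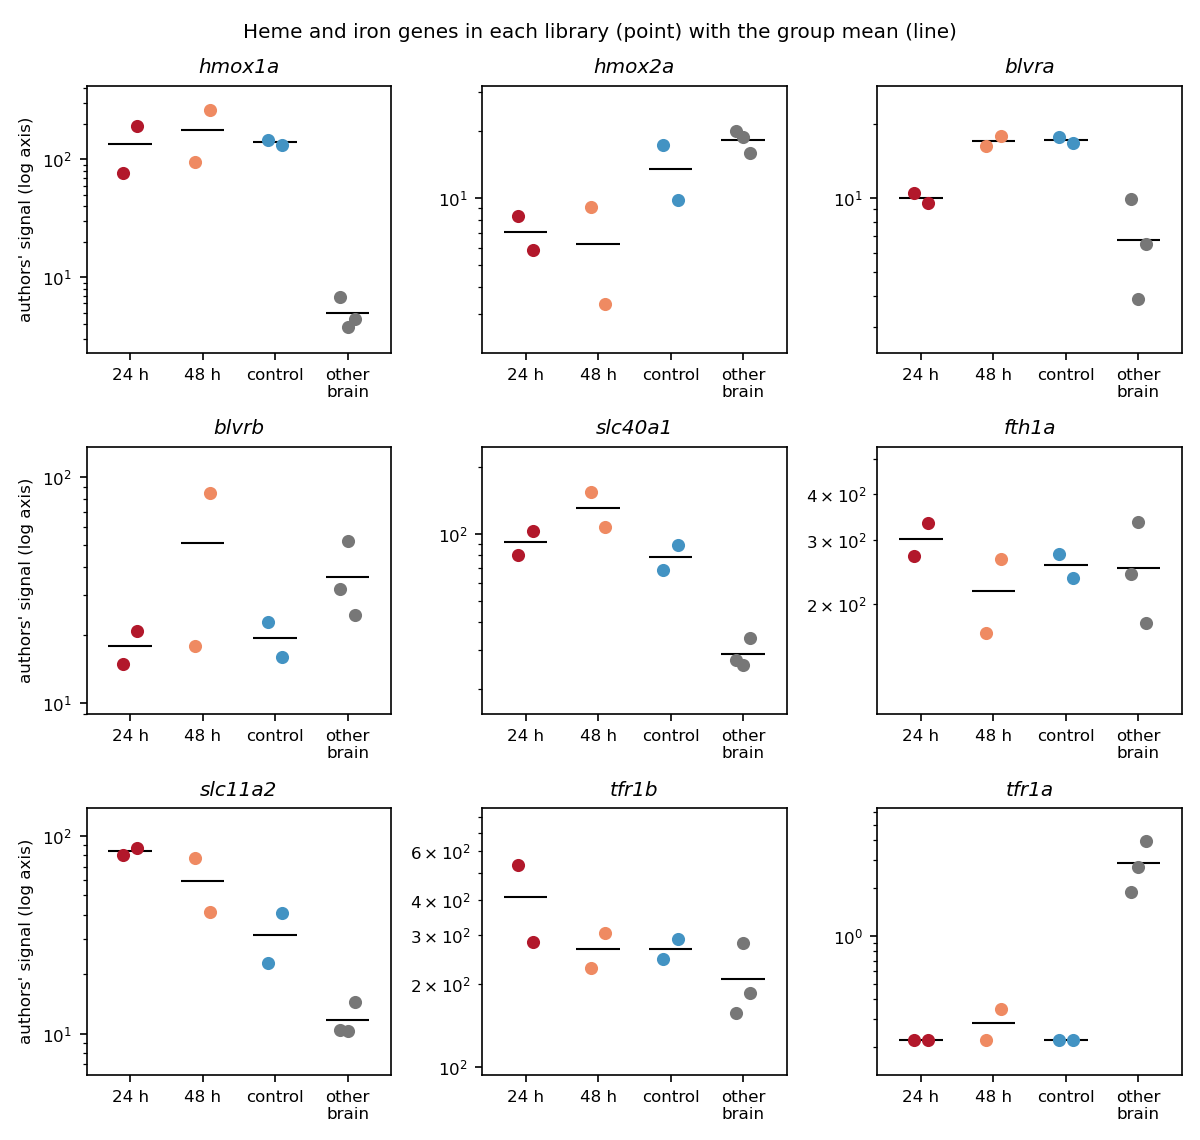
Signal of the 9 heme and iron genes in each library, with 1 panel per gene and a log axis in units of the authors' normalised signal. Points are libraries (24 h, 48 h, control microglia, other brain cells), and lines are group means; for hmox1a the 6 microglia libraries lie between 76.8 and 262 and the other brain cells between 3.80 and 6.86.

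The heme oxygenases behaved differently from each other. The inducible enzyme gene hmox1a (ENSDARG00000027529) had signals of 76.8 and 191 at 24 h, 94.3 and 262 at 48 h, 147 and 133 in control microglia, and 6.86, 3.80 and 4.40 in other brain cells. Every microglia library lay far above every other brain cell library, and the activated libraries spread to both sides of the controls. The mean was 139.8 ± 9.73 in control microglia (SD, n = 2) and 5.02 ± 1.62 in other brain cells (SD, n = 3), a 27.9-fold ratio. In limma the difference was 4.58 ± 0.37 (log2 ± SE, adjusted p = 9.33e-05). Activated microglia averaged 156 ± 86.9 (SD, n = 4), 31.1-fold the level of other brain cells, with a limma difference of 4.57 ± 0.44 (adjusted p = 2.42e-05). With each library left out in turn, the control microglia difference ran from 4.43 to 4.79, and the activated microglia difference kept its call. The difference between activated and control microglia was -0.01 ± 0.53 (limma adjusted p = 0.999), with the 4 activated libraries spread from 76.8 to 262.

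The constitutive heme oxygenase gene hmox2a (ENSDARG00000055101) had the opposite arrangement of groups. Its signal was 8.29 and 5.84 at 24 h, 9.14 and 3.35 at 48 h, 17.4 and 9.81 in control microglia, and 20.0, 18.95 and 16.1 in other brain cells. All activated libraries lay below both control libraries, while control library 1 lay within the range of the other brain cells. Activated microglia averaged 6.66 ± 2.61 (SD, n = 4) and other brain cells 18.3 ± 2.04 (SD, n = 3), and the gene was lower in activated microglia by limma (-1.40 ± 0.36 log2, adjusted p = 0.00849). Control microglia, at 13.6 ± 5.35 (SD, n = 2), did not pass against other brain cells (-0.45 ± 0.38, limma adjusted p = 0.411). Activated against control microglia gave -0.95 ± 0.46 (limma adjusted p = 0.311) and did not pass. The paralogue hmox2b had signals of 13.5, 12.04, 17.9 and 9.24 in activated microglia, 12.7 and 17.6 in control microglia, and 10.6, 6.18 and 8.00 in other brain cells. It passed in none of these comparisons (limma adjusted p = 0.162 for control microglia and 0.153 for activated microglia against other brain cells).

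The biliverdin reductases act on the product of heme oxygenase. For blvra (ENSDARG00000059857) the signals were 10.5 and 9.59 at 24 h, 16.2 and 17.9 at 48 h, 17.7 and 16.8 in control microglia, and 9.92, 3.90 and 6.49 in other brain cells. The 48 h and control libraries occupied the same narrow range, and both 24 h libraries lay below it, beside the highest other brain cell library. The mean of 17.2 ± 0.615 in control microglia (SD, n = 2) was 2.55-fold that of other brain cells, at 6.77 ± 3.02 (SD, n = 3), but the adjusted p of limma was 0.0542 (1.31 ± 0.45 log2). The gene was called under 4 of the 10 other settings of that comparison that kept all libraries. Activated microglia against other brain cells gave 0.93 ± 0.38 (limma adjusted p = 0.0643), and it passed under quantile normalisation (1.15, limma adjusted p = 0.0338), with all 9 libraries in a fit (limma adjusted p = 0.0393) and without other brain cell library 2 (1.22, limma adjusted p = 0.0452). The 24 h libraries differed from the controls by -0.73 ± 0.27 (limma adjusted p = 0.306), and 48 h minus 24 h gave 0.71 ± 0.27 (limma adjusted p = 0.892). Neither passed.

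For blvrb (ENSDARG00000096829), whose mammalian counterpart also acts as a flavin reductase of red blood cells, 1 library stood apart. Its signals were 15.0 and 20.8 at 24 h, 17.9 and 84.5 at 48 h, 22.8 and 16.1 in control microglia, and 31.9, 52.2 and 24.6 in other brain cells. The 48 h library 8 was the highest of all 9 libraries, and the other 5 microglia libraries lay below every other brain cell library. Activated against other brain cells gave -0.37 ± 0.56 with that library (limma adjusted p = 0.601) and -0.92 without it (limma adjusted p = 0.0354). Control microglia against other brain cells gave -0.82 ± 0.40 (limma adjusted p = 0.154). The summed signal of the 13 erythrocyte markers was 50.4 and 54.3 at 24 h, 37.7 and 40.2 at 48 h, 935 and 163 in control microglia, and 2465, 6098 and 4258 in other brain cells, and its part in the blvrb values was not tested. None of those markers was at 0 reads in every microglia library.

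Ferroportin, encoded by slc40a1 (ENSDARG00000000241), is the iron exporter of vertebrate cells. Its signal was 80.2 and 103 at 24 h, 154 and 107 at 48 h, 68.8 and 88.8 in control microglia, and 26.9, 25.7 and 33.9 in other brain cells. All microglia libraries lay above all other brain cell libraries, and the activated range overlapped the control range. Control microglia averaged 78.8 ± 14.1 (SD, n = 2), 2.73-fold the 28.8 ± 4.45 of other brain cells (SD, n = 3; limma 1.42 ± 0.32 log2, adjusted p = 0.00869). Activated microglia averaged 111 ± 30.9 (SD, n = 4), 3.85-fold the level of other brain cells (limma 1.88 ± 0.29 log2, adjusted p = 0.000383). Without control library 5, which leaves a single control library, the first of these was 1.24, and no call is read from that fit. Activated minus control microglia gave 0.46 ± 0.29 (limma adjusted p = 0.42), and 48 h alone gave 0.71 ± 0.29 against control (limma adjusted p = 0.292).

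The ferritin heavy chain gene fth1a (ENSDARG00000015551) did not separate microglia from other brain cells. Its signal was 271 and 334 at 24 h, 167 and 266 at 48 h, 275 and 236 in control microglia, and 242, 336 and 177 in other brain cells. The other brain cells alone spanned nearly the whole range of the 9 libraries, whose highest value was 2.01-fold the lowest. Means were 256 ± 27.2 in control microglia (SD, n = 2) and 252 ± 79.8 in other brain cells (SD, n = 3), with a limma difference of 0.07 ± 0.36 (adjusted p = 0.913). For activated microglia, at 260 ± 69.1 (SD, n = 4), the limma difference from other brain cells was 0.05 ± 0.34 (adjusted p = 0.916). Both estimates turned negative when columns were scaled to equal sums (-0.32 and -0.41) or quantile normalised (-0.58 and -0.79).

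The divalent metal transporter gene slc11a2 (ENSDARG00000024295), whose product moves ferrous iron across the plasma membrane and out of endosomes, was ordered from activated microglia down to other brain cells. Its signal was 80.4 and 86.5 at 24 h, 77.3 and 41.3 at 48 h, 22.6 and 40.6 in control microglia, and 10.4, 10.3 and 14.4 in other brain cells. No group range of activated microglia, control microglia and other brain cells overlapped the next, although the 48 h library 8 and control library 5 differed by little. Activated microglia averaged 71.4 ± 20.4 (SD, n = 4), 6.09-fold the 11.7 ± 2.34 of other brain cells (SD, n = 3), with a limma difference of 2.47 ± 0.32 (adjusted p = 0.000144) that kept its call without any 1 library. Control microglia averaged 31.6 ± 12.7 (SD, n = 2), 2.70-fold the other brain cells, with a limma difference of 1.32 ± 0.40 (adjusted p = 0.0311).

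The call of slc11a2 in control microglia was lost without other brain cell library 2 or 6 (limma adjusted p = 0.105 and 0.0586). It was also lost after scaling to equal column sums (0.95, limma adjusted p = 0.122). Without control library 1 or 5, each leaving a single control library, the difference was 1.72 or 0.91 log2, and no call is read. Activated minus control microglia gave 1.15 ± 0.39 for slc11a2, with an unadjusted p of 0.0249 and a limma adjusted p of 0.173. It was the gene among the 9 with the lowest p in that comparison, where 4456 of 21714 genes had an unadjusted p under 0.05. At 24 h alone the difference from control was 1.43 ± 0.43 (limma adjusted p = 0.241), and at 48 h 0.88 ± 0.43 (limma adjusted p = 0.355).

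The transferrin receptors take up transferrin-bound iron. In zebrafish tfr1a is known for its need in red blood cell precursors, and tfr1b for a role in other tissues. For tfr1b (ENSDARG00000077372) the signal was 537 and 284 at 24 h, 228 and 304 at 48 h, 245 and 290.0 in control microglia, and 156, 281 and 185 in other brain cells. The 24 h library 3 was the highest, and other brain cell library 6 lay inside the microglia range. Means were 338 ± 136 in activated microglia (SD, n = 4), 268 ± 31.9 in control microglia (SD, n = 2) and 207 ± 65.1 in other brain cells (SD, n = 3). The gene passed neither for activated microglia (0.67 ± 0.36, limma adjusted p = 0.146) nor for control microglia (0.41 ± 0.36, limma adjusted p = 0.426) against other brain cells. Under quantile normalisation both values were negative (-0.13 and -0.19).

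Reads of tfr1a (ENSDARG00000101322) came almost wholly from the GFP-negative cells. Reads numbered 0 in both 24 h libraries, 0 and 1 in the 48 h libraries 4 and 8, 0 in both control libraries, and 13, 23 and 52 in other brain cells 2, 6 and 10. The corresponding signals in other brain cells were 1.88, 2.71 and 3.97, and 5 of the 6 microglia libraries stood at the constant of 0.223. Only the other brain cells carried the gene past the filter on low values. With a floor of 3 reads per library, the level above the constant was at least 5.72-fold lower in control microglia than in other brain cells. For activated microglia, 1 read against 88 gave a ratio of 0.00922 per effective read (exact 95% interval 0.000231 to 0.0527, counting error only).

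On the log2(signal + 1) scale, which shrinks changes of low genes, the tfr1a difference from other brain cells was -1.59 ± 0.25 in activated and -1.62 ± 0.38 in control microglia (SE). These values describe the reads above, because a gene kept only through the group where it is high had to differ. With a filter of 5 it was not tested. Fits without control library 1 or 5 leave a single control library, and no call is read from them. The erythrocyte marker sums given beside blvrb moved with tfr1a across the sorted and GFP-negative groups, and their part in its values was not tested.

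**Figure D2:**
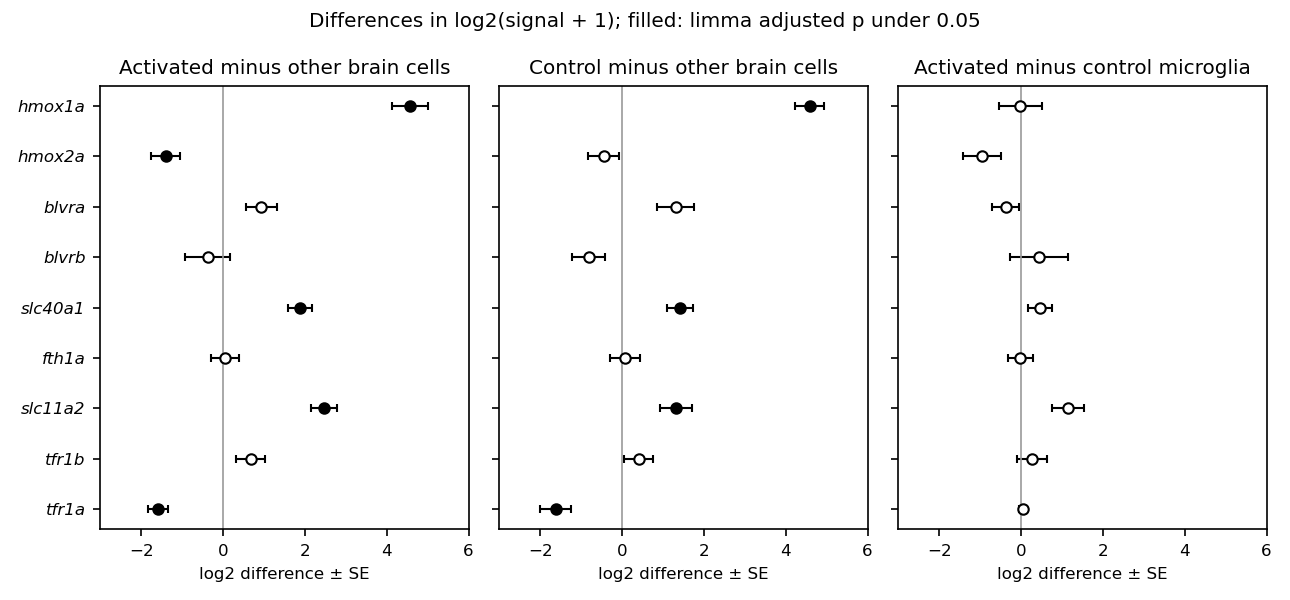
Differences in log2(signal + 1) of the 9 genes with their standard errors from limma, for activated microglia minus other brain cells, control microglia minus other brain cells and activated minus control microglia. Filled points are calls; hmox1a has the largest difference in the first and second panels (4.57 and 4.58), and the third panel holds no filled point.

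The median difference of all genes between control microglia and other brain cells was -0.14 as deposited, -0.47 after scaling to equal column sums and 0.06 after quantile normalisation. For activated microglia against other brain cells it was -0.05, -0.42 and 0.13. Equal column sums also moved the split of calls over all genes, to 3522 higher and 7365 lower in activated microglia (4970 and 6000 as deposited) and to 2499 and 5189 in control microglia (3269 and 4379 as deposited). Relative to that median, the control microglia differences under the 3 scalings lay between 4.71 and 4.81 for hmox1a, 1.22 and 1.56 for slc40a1, 1.42 and 1.46 for slc11a2, and -1.48 and -1.11 for tfr1a. In activated microglia they lay between 4.50 and 4.61 for hmox1a, 1.40 and 1.93 for slc40a1, 2.24 and 2.52 for slc11a2, -1.48 and -1.36 for hmox2a, and -1.54 and -1.08 for tfr1a. The called genes kept their side of the all-gene median under each scaling. Over the 9 genes the median difference was 0.41 for control microglia and 0.67 for activated microglia against other brain cells. Groups did not overlap for 4 genes higher and 2 lower (blvrb and tfr1a) in control microglia, where 25.9% and 32.6% of all genes did so. In activated microglia 3 genes lay wholly above and 2 (hmox2a and tfr1a) wholly below other brain cells, where 24.2% and 29.3% of all genes did so. In these counts, as against the median, tfr1a is a description and not support, since only other brain cells carried it past the filter.

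By time, 24 h and 48 h were set against control microglia and against each other. None of the 9 genes was called by limma in any of these 3 comparisons, in which 0.00461%, 0% and 0% of all genes were called. Unadjusted p-values under 0.05 numbered 2 at 24 h against control (slc11a2 and blvra), 0 at 48 h against control and 1 for 48 h against 24 h (blvra). Over all 21714 genes they numbered 3408, 3966 and 899. Limma-voom called none of the 9 genes in these comparisons either. In the pooled comparison of activated with control microglia, slc11a2 lay wholly higher and hmox2a wholly lower without overlap, where 15.9% and 15.5% of all genes did so.

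In the authors' deposited table, which does not name the libraries behind a comparison, the comparison headed MG_VS_WB had log2 fold changes of 4.68 for hmox1a (FDR = 2.86e-16), 1.58 for slc11a2 (FDR = 0.000786), 1.53 for blvra (FDR = 0.00835), 1.09 for slc40a1 (FDR = 0.0308) and -7.58 for tfr1a (FDR = 9.33e-06). These are 4 genes higher and 1 lower, and the authors' deposited table has 17.9% of all genes higher and 24.9% lower at that threshold. With at most 1 read in a microglia library, the lower value of tfr1a is again a description and not support. None of the 9 genes passed an FDR of 0.05 in the authors' deposited table in the comparisons headed 48hr_VS_CTRL_MG, 24hr_VS_CTRL_MG, ND_MG_VS_CTRL_MG and 24hr_VS_48_MG, where 4.18%, 1.14%, 5.7% and 0.0276% of all genes passed. For slc11a2 the authors' deposited table gives 1.03 with an FDR of 0.0982 under ND_MG_VS_CTRL_MG.

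The genes with profiles most like those of the 9 genes were taken from 7282 genes by the mean absolute difference of centred log2 profiles over the 9 libraries. For hmox1a these were si:dkey-25e12.3 (0.28), kcnk5a (0.31) and mapre1a (0.32), where the median candidate stood at 1.82, and the closest within the set was slc11a2 at 1.30. Nearest to slc40a1 was swap70b (0.12), followed by pik3c2a (0.15) and tbc1d5 (0.16). For slc11a2 the nearest were dync1i2a (0.19), etf1b (0.20) and dkc1 (0.21). The genes nearest to hmox2a were sash1a (0.17) and brd1a (0.19), to blvra acy1 (0.22), to blvrb rab18a (0.18), to fth1a cdipt (0.14), to tfr1b ldha (0.17) and to tfr1a arhgef11 (0.16). Among the 9 genes themselves the closest pair was fth1a with tfr1b (0.36), ahead of slc40a1 with slc11a2 (0.39).

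The 9 genes were then placed among a wider list of 83 heme and iron genes sorted by role. Of these, 17 were higher and 7 lower in control microglia against other brain cells, where 15.1% and 20.2% of all genes were called, and their median difference was 0.18 against -0.14 over all genes. In activated microglia 29 were higher and 12 lower, against 22.9% and 27.6% of all genes, with a median of 0.58 against -0.05. Activated against control microglia gave 2 higher and 0 lower, against 0.834% and 0.47% of all genes, with a median of 0.23 against 0.01 over all genes.

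**Figure D3:**
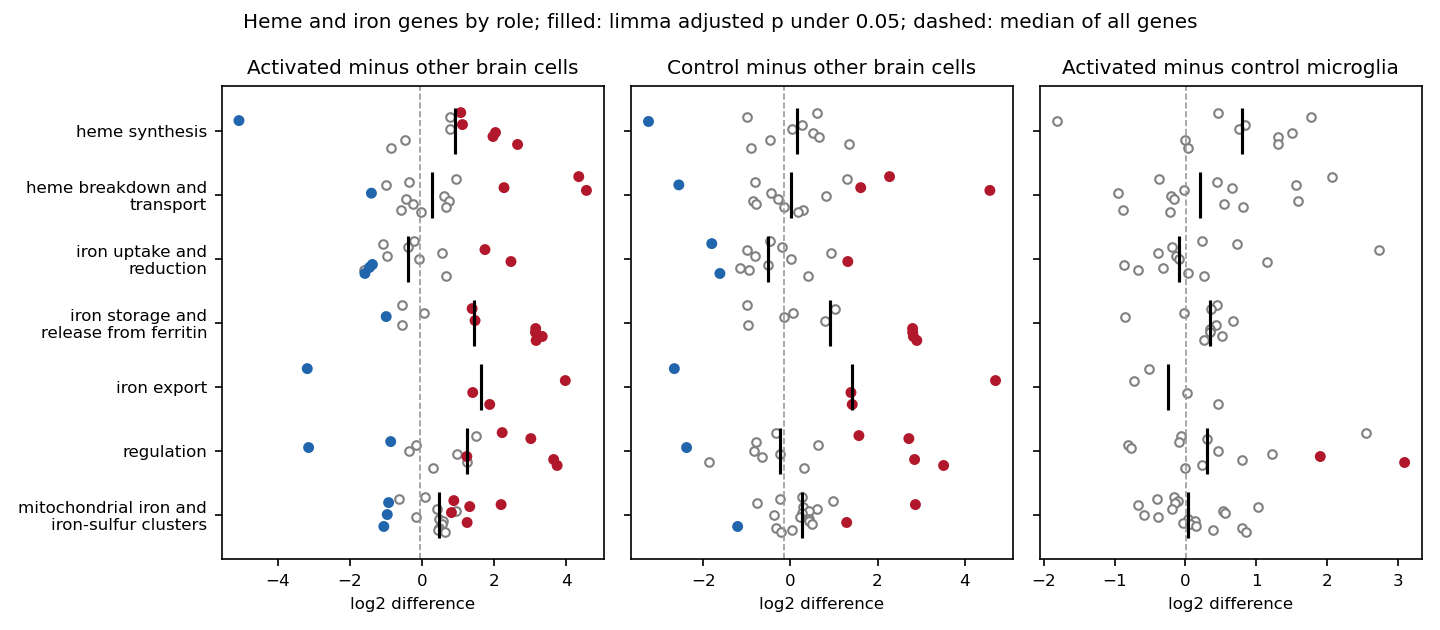
Differences in log2(signal + 1) of 83 heme and iron genes by role, for activated minus other brain cells, control minus other brain cells and activated minus control microglia. Filled points are limma calls (red higher, blue lower), black lines list medians and dashed lines the median of all genes; in the first panel 29 points are red and 12 blue.

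Among the ferritin storage genes, 4 heavy-chain-like copies separated microglia from other brain cells. Of 10 storage and release genes, 4 were higher and none lower in control microglia, and 6 were higher and 1 lower in activated microglia, by limma. As background, limma called 15.1% of all tested genes higher and 20.2% lower when controls were set against other brain cells. When activated libraries were set against them, it called 22.9% higher and 27.6% lower. The 4 storage genes called in control microglia are ferritin heavy-chain-like genes named zgc:92066, zgc:198419, zgc:173593 and zgc:109934 in the data. Their later reference names are fthl27, fthl28, fthl30 and fthl31. Their summed signal was 3354 and 6481 at 24 h, 3145 and 6889 at 48 h, 3521 and 3903 in control microglia, and 732, 652 and 279.7 in other brain cells. Every microglia library lay above every other brain cell library, and control microglia lay inside the activated range. The ratio of zgc:92066 to zgc:109934 stayed between 0.957 and 1.16 in all libraries. Whether reads were shared between these copies was not tested, so their separate values are uncertain and their calls may not be separate results.

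Taken singly, zgc:92066 differed from other brain cells by 3.17 ± 0.44 in activated and 2.90 ± 0.45 in control microglia, and zgc:198419 by 3.34 ± 0.46 and 2.82 ± 0.46, with limma adjusted p-values of 0.000224, 0.00139, 0.000206 and 0.00168. Without control library 5, which leaves a single control library, zgc:198419 and zgc:173593 gave 2.71 and 2.70, and no call is read. The paralogue fth1b had signals of 57.4, 59.9, 50.9 and 52.3 in activated microglia, 92.5 and 108 in control microglia, and 118, 137 and 83.3 in other brain cells. It was lower in activated microglia than in other brain cells (limma -0.99 ± 0.26, adjusted p = 0.00966), and against control microglia it gave -0.85 ± 0.17 (limma adjusted p = 0.0721).

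**Figure D4:**
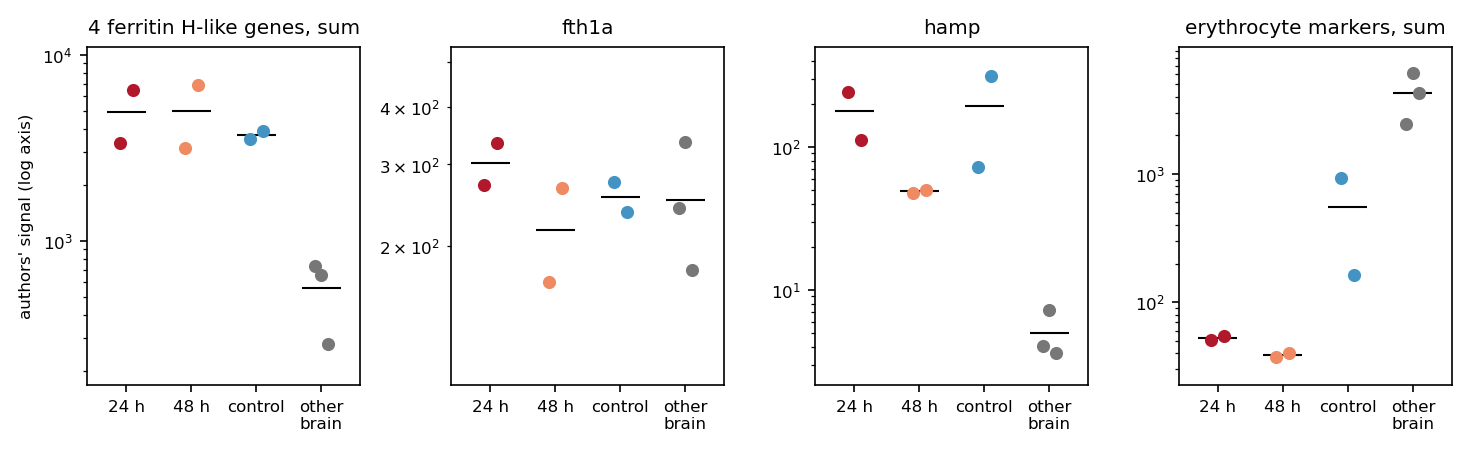
Signal per library of the sum of 4 ferritin heavy-chain-like genes, of fth1a, of hamp and of the sum of 13 erythrocyte markers, on log axes in units of the authors' normalised signal, with lines at group means. The ferritin-like sum is 3145 to 6889 in microglia and 279.7 to 732 in other brain cells, while the fth1a ranges of microglia and other brain cells overlap and the erythrocyte sum is highest in other brain cells.

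Of 4 iron export genes, 3 were higher and 1 lower in both microglia populations against other brain cells. Among all genes, 22.9% were higher and 27.6% lower in activated microglia, and 15.1% and 20.2% in control microglia. Hepcidin, encoded by hamp, is the peptide that binds ferroportin and leads to its breakdown. Its signal was 243 and 112 at 24 h, 47.6 and 50.1 at 48 h, 71.9 and 312 in control microglia, and 4.05, 7.26 and 3.61 in other brain cells. All microglia libraries were above other brain cells, with differences of 3.98 ± 0.54 in activated and 4.71 ± 0.60 in control microglia (limma adjusted p = 0.000197 and 0.000582). Control library 5 was the highest of all, and control library 1 lay between the 24 h and 48 h libraries. The ferroxidase gene hephl1a was higher by 1.41 ± 0.32 in activated and 1.39 ± 0.33 in control microglia (limma adjusted p = 0.00455 and 0.0105). In control microglia that call was lost without other brain cell library 2 (limma adjusted p = 0.051). Without control library 5, which leaves a single control library, the difference fell to 1.11, and no call is read from that fit. With equal column sums hephl1a gave 0.95 in activated and 1.00 in control microglia, and neither passed (limma adjusted p = 0.0509 and 0.0548). The plasma ferroxidase gene cp was lower in both, with -3.19 ± 0.43 in activated and -2.67 ± 0.52 in control microglia (limma adjusted p = 0.000169 and 0.00428). Without control library 1, which leaves a single control library, the latter was -2.20.

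Of 10 heme synthesis genes, 5 were higher and 1 lower in activated microglia, and none higher and 1 lower in control microglia, against other brain cells. For all genes the shares were 22.9% higher and 27.6% lower in activated microglia, and 15.1% and 20.2% in control microglia. The lower gene was alas2, which encodes the red-cell form of the first enzyme of the pathway. Its signal was 1.54 and 1.74 at 24 h, 1.14 and 0.599 at 48 h, 9.96 and 4.48 in control microglia, and 43.4, 82.2 and 112 in other brain cells. The 3 populations did not overlap, and the erythrocyte marker sums had the same order of groups; their part in the alas2 values was not tested. Differences were -5.08 ± 0.39 in activated and -3.27 ± 0.49 in control microglia (limma adjusted p = 8.31e-06 and 0.00114), and -1.81 ± 0.39 for activated against control microglia (limma adjusted p = 0.0792). In the authors' deposited table alas2 has -3.19 under ND_MG_VS_CTRL_MG (FDR = 2.1e-06), -2.64 under 24hr_VS_CTRL_MG (FDR = 0.0161) and -3.74 under 48hr_VS_CTRL_MG (FDR = 0.000131). In activated microglia urod was higher by 2.65 ± 0.40 and hmbsa by 2.04 ± 0.32 (limma adjusted p = 0.000379 and 0.000431), both enzymes of the middle of the pathway.

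Of 14 heme breakdown and transport genes, hmox1a included, 3 were higher and 1 lower in each microglia population. Over all genes, 22.9% were higher and 27.6% lower in activated microglia, and 15.1% and 20.2% in control microglia. The efflux pump gene abcg2a had signals of 23.2, 20.9, 37.8 and 39.8 in activated microglia, 2.08 and 15.7 in control microglia, and 0.478, 0.331 and 0.655 in other brain cells. It was higher by 4.35 ± 0.34 in activated microglia (limma adjusted p = 8.96e-06) and by 2.28 ± 0.65 in control microglia (limma adjusted p = 0.0257). Its values in other brain cells were all under the filter of 1. Since abcg2a passed that filter only through microglia, its calls are descriptions and not support. The call in control microglia was lost without other brain cell library 2, 6 or 10 (limma adjusted p = 0.0898, 0.0609 and 0.058). Without control library 5, which leaves a single control library, the difference was 1.05, and no call is read. For flvcr2b, a transporter gene of a family linked to heme, the differences were 2.28 ± 0.39 in activated and 1.61 ± 0.42 in control microglia (limma adjusted p = 0.000883 and 0.0168). Without control library 1 or 5, each leaving a single control library, its difference was 1.88 or 1.35, and no call is read. The heme exporter gene flvcr1 was lower in control microglia (-2.56 ± 0.44, limma adjusted p = 0.0024).

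Of 13 regulators, 5 were higher and 2 lower in activated microglia, and 4 higher and 1 lower in control microglia, against other brain cells. All genes had shares of 22.9% higher and 27.6% lower in activated microglia, and 15.1% and 20.2% in control microglia. The gene nfe2l2a encodes the zebrafish counterpart of NRF2, which activates the heme oxygenase 1 gene in mammals, and keap1a and keap1b encode its inhibitors. The nfe2l2a signal was 422 and 452 at 24 h, 438 and 385 at 48 h, 265 and 489 in control microglia, and 45.7, 18.8 and 32.8 in other brain cells. It was higher by 3.75 ± 0.32 in activated and 3.52 ± 0.44 in control microglia (limma adjusted p = 1.19e-05 and 0.000546), with the activated libraries inside the range of the controls. For keap1a the differences were 3.66 ± 0.39 and 2.85 ± 0.48 (limma adjusted p = 4.18e-05 and 0.00202). Without control library 1, which leaves a single control library, the second was 2.67. For bach1b, a counterpart of a mammalian repressor of heme oxygenase 1, control microglia were higher by 2.72 ± 0.63 (limma adjusted p = 0.0103). Without control library 1 or 5, each leaving a single control library, the bach1b difference was 2.92 or 2.52. The hypoxia factor gene epas1b was lower in activated microglia (-3.15 ± 0.40, limma adjusted p = 0.000125).

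Activated against control microglia, the genes called were keap1b and ireb2, the counterpart of mammalian iron regulatory protein 2. The keap1b signal was 16.0 and 15.0 at 24 h, 22.7 and 23.3 at 48 h, against 0.532 and 2.51 in control microglia, a difference of 3.10 ± 0.43 (limma adjusted p = 0.0447). The 0.532 of control library 1 lies under the filter of 1 and under 3 reads, which are worth 0.464 above the constant of 0.223 there. For ireb2 the signal was 30.9 and 40.6 at 24 h, 48.1 and 45.4 at 48 h, against 10.3 and 9.96 in control microglia, a difference of 1.91 ± 0.24 (limma adjusted p = 0.0427). Both genes stood higher in all 4 activated libraries than in both controls. In other brain cells keap1b had signals of 5.33, 2.71 and 24.3, and ireb2 of 12.7, 10.4 and 33.9. Library 10 of that group thus lay above all 4 activated libraries for keap1b and inside the activated range for ireb2. Under ND_MG_VS_CTRL_MG the authors' deposited table has 2.41 for keap1b (FDR = 0.0648) and 1.09 for ireb2 (FDR = 0.245), neither of which passes there. Markers of other cells were called in the same comparison, with 3 of 7 other macrophage and dendritic markers lower (list median -2.50), 2 of 13 erythrocyte markers lower (list median -1.60) and 1 of 8 endothelial and mural markers higher. Summed signals of the other macrophage and dendritic list were 1248 to 8082 in activated and 1635 and 1638 in control microglia, and the part of these markers in the keap1b and ireb2 values was not tested.

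Neither of these calls held without 24 h library 3, 24 h library 7 or 48 h library 4. For keap1b the limma adjusted p-values were 0.148, 0.139 and 0.15, and for ireb2 0.144, 0.135 and 0.149. With each library left out in turn, the difference ran from 2.50 to 3.70 for keap1b and from 1.83 to 2.04 for ireb2. Fits without control library 1 or 5 leave a single control library, and no call is read from them. Over the whole table, 181 genes were called higher and 102 lower in activated microglia, against 0 and 0 without 24 h library 3, 24 h library 7 or 48 h library 4. Without 48 h library 8 the counts were 1043 and 507. With limma-voom on the reads they were 23 and 23, and keap1b and ireb2 had adjusted p-values of 0.073 and 0.0665. Library 8 was also the highest of the 6 microglia libraries in 28 of the 83 wider genes and the lowest in 14. Its summed signal over all genes was 1444668, against 998447 to 1071079 in the other microglia libraries. In other brain cells these sums were 728524 to 918743. The part of the sums in these counts was not tested.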

How the data were processed

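RNA from sorted cells was amplified with a low-input kit that does not mark strand and sequenced as single-end reads, per the labels' protocols, so a gene and an antisense partner cannot be told apart. Reads were processed with build GRCz10, SAMtools 0.1.18, TopHat2 2.0.5 and edgeR, per the submitters' processing notes, while the counting tool, annotation, filter and scaling are not given in the sources used here. The first deposited table holds the authors' normalised signal per gene and library. A constant of 0.223 stands for 0 reads in every column, and all values are whole multiples of a library's step above it (tolerance 0.05 steps), from which reads were computed. In another deposited table the authors give log2 fold changes with FDR (adjusted p-values) but name no libraries.

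A signal of 1 or more in 2 or more libraries was required (21714 genes, among them all 9 heme and iron genes). Values were fitted as log2(signal + 1) with limma 3.58.1 in R 4.3.3 (mean-variance trend, two-sided, Benjamini-Hochberg over all genes tested, calls at an adjusted p under 0.05), on the libraries of the compared groups, in a total of 6 comparisons. The comparisons by time shared a fit of 3 groups. The fits were also run on simulated data, with large changes put into well-expressed genes at a fixed spread, for part of the comparisons. Those runs do not show how the fits behave at the spread of these libraries. Tables and plots used Python 3.11.15, pandas 2.3.3, numpy 2.4.6 and matplotlib 3.10.9. A signal of 0.216 to 0.464 above the constant corresponds to 3 reads, and intervals on reads cover counting error only.

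The genes, the role lists and the marker lists were chosen with earlier results of these data known, and so was the choice to leave out library 9. Besides the 9 genes, the text names up to 3 called genes per role list and comparison with the largest differences, paralogues of the 9, and the most similar profiles over 9 libraries among genes with a mean of at least 20. A result that this rule names is not reported here. Alternatives were other pseudocounts, filters, scalings, a fit without the trend, all libraries in a fit, library 9 as a control, each library left out, and limma-voom on the reads, which was added after seeing the data. Of 95 symbols sought for the role lists, 82 were found in 83 rows. Reference gene names belong to a later build, so no positions are given.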

Additional observations from a re-analysis of the deposited data

Results flagged for a closer look

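In the 4 activated libraries, blvrb stood at 84.5 in 48 h library 8, against 15.0 to 20.8 in the other 3 libraries, a gap that filled most of the group's range. For tfr1a the same library stood at 0.348, which is 1 read, while the other 3 stood at the constant of 0.223 for 0 reads. The ferroxidase gene hephl1a stood at 261 in 48 h library 4, against 117 to 137 in the other 3. These are 3 of 36 groups of 4 values tested for a single distant library. For continuous values of a single population, chance alone flags about 1 in 20 groups, whereas these groups pool 24 h and 48 h libraries. With 3 libraries at the constant, any read in the remaining library sets the flag, so the flag of tfr1a carries no weight.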

How the results depend on the processing

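Of 849 recomputed values of the 9 genes over 54 results, 795 kept direction and side of the threshold, and 8 lost a call. Another 9 gained a call and 37 turned sign, all of these among differences that had not passed. These counts include fits that leave a single library in a group. Without other brain cell library 2, 6 or 10, the genes among the 9 called higher in control microglia numbered 2, 2 and 3, with 1 lower each time. Fits without control library 1 or 5 leave a single control library, and no calls are read from them. The count lower in control microglia was 0 with a filter of 5, which removes tfr1a, and 2 with equal column sums, and in activated microglia against other brain cells it was 1 with that filter. Against other brain cells, equal column sums and quantile normalisation gave -0.41 and -0.79 for fth1a in activated microglia and -0.32 and -0.58 in control microglia, and quantile normalisation gave -0.13 and -0.19 for tfr1b. With library 9 as a control, activated minus control microglia gave 0.27 for hmox1a and -0.071 for tfr1b, 24 h minus control gave 0.084 for hmox1a and 0.0019 for blvrb, and 48 h minus control gave 0.21 for blvra. Library 9 holds the values of library 3, which stayed among the activated libraries in these fits. The same column then sat on both sides of the activated and 24 h comparisons, so that setting is no independent check. Its counts of calls over all genes, given below, carry the same limit. For hmox1a at 48 h against control, equal sums and quantile normalisation gave -0.054 and -0.17, and limma-voom gave -0.13 for tfr1a in activated against control microglia. With single libraries left out, sign changes occurred for fth1a in activated (-0.18 to 0.28) and control microglia (-0.16 to 0.30) against other brain cells. In activated against control microglia they occurred for hmox1a (-0.32 to 0.27), fth1a (-0.15 to 0.18) and blvrb (-0.10 to 0.70), and at 24 h against control for hmox1a (-0.85 to 0.45) and blvrb (-0.35 to 0.13). At 48 h against control they occurred for hmox1a (-0.56 to 0.90), fth1a (-0.61 to 0.064), tfr1b (-0.23 to 0.19), blvra (-0.083 to 0.050) and blvrb (-0.088 to 2.09), and for 48 h minus 24 h for hmox1a (-0.36 to 1.11) and hmox2a (-0.87 to 0.35). The causes of these sign changes were not tested. Over all genes, 3269 higher and 4379 lower calls in control microglia against other brain cells became 2471 and 3296 without other brain cell library 2. The 181 and 102 of activated against control microglia became 477 and 174 with a filter of 5, and 108 and 64 with equal column sums. They became 346 and 267 with quantile normalisation, and 300 and 166 with all 9 libraries fitted together. With library 9 as a control they were 0 and 0, and with limma-voom 23 and 23. Both times as separate groups gave 3 and 1, and a pseudocount of 0.1 gave 171 and 69. Over all single activated libraries left out, they ran from 0 to 1043 and from 0 to 507. At 24 h against control the 1 higher call became 0 with a pseudocount of 5, without the trend and with limma-voom. It became 0 with library 9 as a control and 2 with quantile normalisation. At 48 h against control, 0 and 0 became 3 and 1 with a pseudocount of 0.1, 81 and 29 with a filter of 5, 2 and 3 with equal column sums, 40 and 20 with quantile normalisation and 190 and 112 with all 9 libraries fitted together. Of 39 results of other named genes, 19 lost their call under at least 1 alternative, fits with a single control library included, and none turned sign. No paired analysis was possible because the labels give no replicate number that groups share. Depth limits tfr1a, which had at most 1 read in a microglia library.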

Other observations

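Of 19 genes for mitochondrial iron and iron-sulfur clusters, 5 were higher and 3 lower in activated microglia, and 2 higher and 1 lower in control microglia, against other brain cells. Calls over all genes were 22.9% higher and 27.6% lower in activated microglia, and 15.1% and 20.2% in control microglia. The transporter gene abcb6b was higher by 2.20 ± 0.79 in activated and 2.87 ± 0.42 in control microglia (limma adjusted p = 0.0409 and 0.0011). Other brain cells averaged 0.646 for abcb6b, under the filter of 1, so these calls are descriptions and not support. The mitochondrial iron importer gene slc25a28 was higher by 1.25 ± 0.43 in activated and 1.29 ± 0.41 in control microglia (limma adjusted p = 0.0347 and 0.0388). In activated microglia the abcb6b call was lost in 6 of 7 fits that each left out a library, and in both populations that of slc25a28 was lost in most of them.

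Of 13 iron uptake and reduction genes, 2 were higher and 3 lower in activated microglia, and 1 higher and 2 lower in control microglia, against other brain cells. The all-gene shares were 22.9% higher and 27.6% lower in activated microglia, and 15.1% and 20.2% in control microglia. The ferric reductase gene cybrd1 had signals of 30.1 and 32.8 at 24 h, 11.8 and 35.2 at 48 h, 0.532 and 9.20 in control microglia, and 8.52, 6.94 and 5.41 in other brain cells. It was higher in activated microglia than in other brain cells by 1.75 ± 0.40 (limma adjusted p = 0.00481), with a difference of 2.74 ± 0.83 from control microglia (limma adjusted p = 0.146). The metalloreductase gene steap4 was lower in activated microglia (-1.46 ± 0.33, limma adjusted p = 0.00444), and so was steap2 (-1.38 ± 0.50, limma adjusted p = 0.0436), a call lost in 6 of 7 fits that each left out a library. Activated microglia averaged 0.642 for steap4, under the filter of 1, so its call is a description and not support. The steap4 call was also lost under quantile normalisation (limma adjusted p = 0.0601).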
